A study of Mus musculus with 6 samples.

Results

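The insulin-like growth factor (IGF) genes described here are 10 of the 41605 genes in the deposited tables, picked by symbol: the ligands Igf1 and Igf2, the receptors Igf1r and Igf2r, and the binding proteins Igfbp2, Igfbp3, Igfbp4, Igfbp5, Igfbp6 and Igfbp7. They were followed through the cell types of the mouse sciatic nerve at postnatal day 1 (P1) and at P60, with the balance of Igf2 and Igf1 in view. All 10 symbols were found in all 6 libraries. The nerves came from mice on the C57bl/6J background, of both sexes, that carried a Cre transgene active in Schwann cells, a Rosa26 reporter that turns on eYFP in those cells after Cre (ReYFP), and a ubiquitous DsRed transgene (βAct-DsRed). The same 3 transgenes are given for both ages. Cells freed by trypsin and collagenase were sorted for DsRed and run on 10x Chromium 3' v2 chips as 3 independent runs per age, so each age has 3 libraries. At P1, but not at P60, part of the eYFP-positive Schwann cells was removed in the sort, so the number of Schwann cells is not comparable between the ages. How many animals went into a library is not given in the sources used here, and a p-value measures only the spread between libraries.

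IGF1 and IGF2 are small secreted peptides related to insulin, and both signal by binding the tyrosine kinase IGF1R at the cell surface. IGF2R, the mannose 6-phosphate receptor, has no kinase: it takes IGF2 up and delivers it to lysosomes. The IGFBPs hold the ligands in extracellular fluid or matrix and can block or prolong their action, and proteases release the ligands again. In peripheral nerve, IGFs are known for their action on the survival and growth of Schwann cells and axons.

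A level is given as CPM: the unique molecular identifiers (UMIs, each 1 captured mRNA 3' end) of a gene per 1000000 UMIs of all cells of that class in a library. Reads are taken from the 3' end only, so levels are not divided by gene length and are compared between classes and ages rather than between genes. Values in a series of 3 stand in the order of replicates 1, 2 and 3. Totals ran from 20203440 to 30334608 UMIs per library, and 3435 to 4586 cells per library passed the filter of 500 to 5000 genes per cell. Cells were named from marker lists as Schwann, fibroblast, endothelial, mural (pericytes and vascular smooth muscle) or immune, and fibroblasts as endoneurial, epineurial or perineurial where the markers allowed it. Perineurial cells could be named at P60 only (594, 1029 and 836 cells), so the fibroblast class as a whole differs in make-up between the ages. Its sub-classes are given beside it for the IGF genes other than Igf1r, and not for the further pathway genes. The mural class differs in make-up too. Pericytes held 1933869 of its 3050544 UMIs at P1 and 1104852 of 3316277 at P60, and vascular smooth muscle 811060 and 2211425. All markers of each class were detected in that class at both ages, but the same lists named the cells, so this is no check on the names. The third P60 library stood apart: its cells had the lowest median depth (3627 UMIs) and 16.2% of them held over 10% mitochondrial UMIs. Between 14 and 33 cell barcodes were shared by any pair of libraries.

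The genes lie at chr10:87858265-87937042 (Igf1, plus strand), chr7:142650766-142666816 (Igf2, minus), chr7:67952827-68233668 (Igf1r, plus), chr17:12682406-12769664 (Igf2r, minus), chr1:72824503-72852474 (Igfbp2, plus), chr11:7206086-7213923 (Igfbp3, minus), chr11:99041244-99054392 (Igfbp4, plus), chr1:72857932-72874884 (Igfbp5, minus), chr15:102144362-102149511 (Igfbp6, plus) and chr5:77349240-77408041 (Igfbp7, minus) in GRCm38. Igfbp2 and Igfbp5 are neighbours on chromosome 1, on opposite strands.

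Fibroblasts held most of the UMIs of every IGF gene at both ages, by the mean of 3 libraries, and the rest was spread differently for each gene. At P1, fibroblasts gave 92.5% ± 0.308 (SD, n = 3) of all Igf1 UMIs, 90.9% ± 1.66 of Igf2 and 96.8% ± 0.414 of Igfbp6. At P60, their part of Igf1 was 90.3% ± 2.32 and of Igfbp6 96.8% ± 0.305. Igfbp3 and Igfbp7 were shared with vessels: endothelial cells gave 42.8% ± 2.59 of Igfbp3 UMIs at P1 and 10.2% ± 2.39 at P60, and 28.5% ± 1.85 and 27% ± 0.507 of Igfbp7. These parts depend on how many cells of each class were sorted. A CPM within a class does not, but it depends on the mix of sub-classes within that class.

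**Figure D1:**
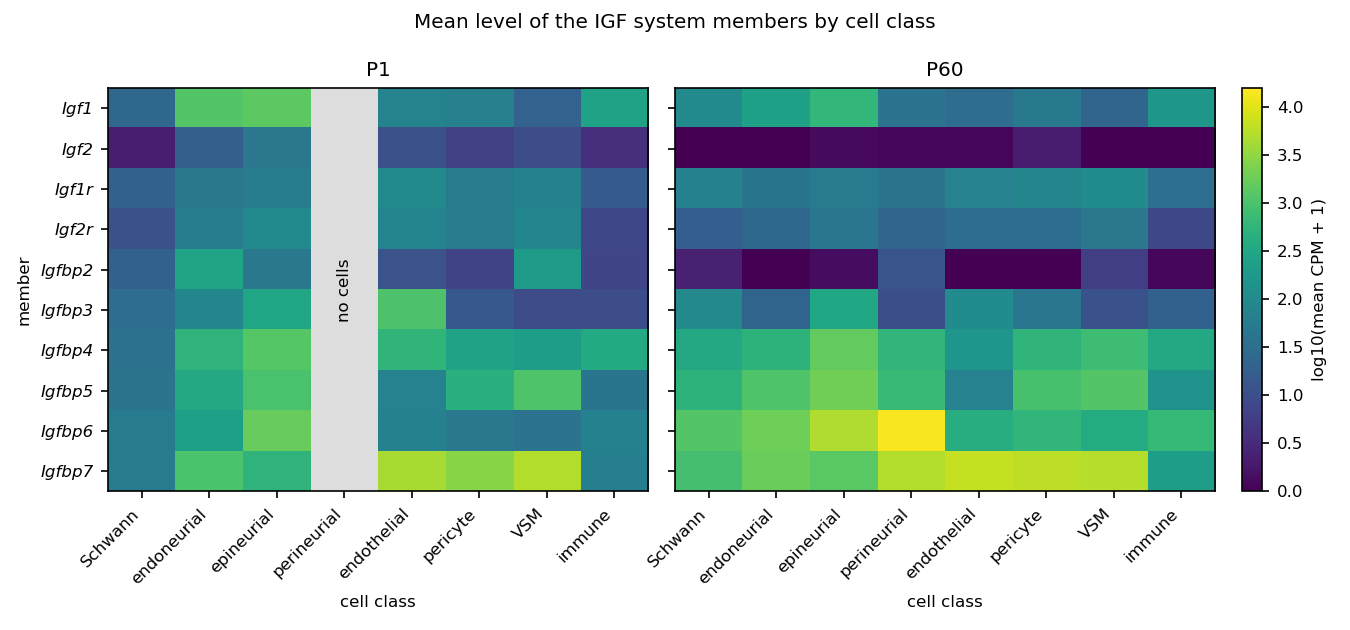
Mean level of each IGF gene (vertical axis) in each cell class (horizontal axis) at P1 (left) and P60 (right), as log10(mean CPM + 1) over 3 libraries. Igf1 is brightest in endoneurial and epineurial cells at P1, Igf2 and Igfbp2 are dark in nearly all classes at P60, Igfbp6 is brightest in perineurial cells at P60, and Igfbp7 is bright in endothelial cells, pericytes and vascular smooth muscle (VSM) at both ages. No perineurial cells were named at P1.

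Within each class, the summed UMIs of the 3 P1 and 3 P60 libraries were compared with edgeR's quasi-likelihood test, with Benjamini-Hochberg adjustment over all genes tested in that class, and a gene was called at an adjusted p under 0.05. In fibroblasts, 4 of 10 tested IGF genes were higher at P60 (Igfbp4, Igfbp5, Igfbp6, Igfbp7) and 4 lower (Igf1, Igf2, Igf2r, Igfbp2), where 30.8% of all genes were called higher and 28.7% lower. In endothelial cells 2 of 10 were higher (Igfbp6, Igfbp7; background 21.1%) and 6 lower (Igf1, Igf2, Igf2r, Igfbp2, Igfbp3, Igfbp4; background 19.6%). In mural cells 4 of 9 were higher (Igfbp4, Igfbp5, Igfbp6, Igfbp7; background 17.9%) and 1 lower (Igfbp2; background 15.5%). Immune cells showed 5 of 8 higher (Igf1r, Igfbp3, Igfbp5, Igfbp6, Igfbp7; background 20.3%) and 1 lower (Igf1; background 17.2%), of which Igfbp3 was lost when cells with UMIs of the fibroblast gene Dcn were left out. Schwann cells showed 7 of 9 higher (Igf1, Igf1r, Igfbp3, Igfbp4, Igfbp5, Igfbp6, Igfbp7; background 23.4%) and 1 lower (Igfbp2; background 20.5%), but 2 of these calls, Igf1 and Igfbp3, were lost when Schwann cells with Dcn UMIs were left out. Among the sub-classes, 8 of 10 IGF genes were called in either direction in endoneurial cells (background 46.1%), 8 of 10 in epineurial cells (47.2%), 6 of 8 in macrophages (39.1%), 5 of 8 in pericytes (26.6%) and 3 of 7 in vascular smooth muscle (32.6%).

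**Figure D2:**
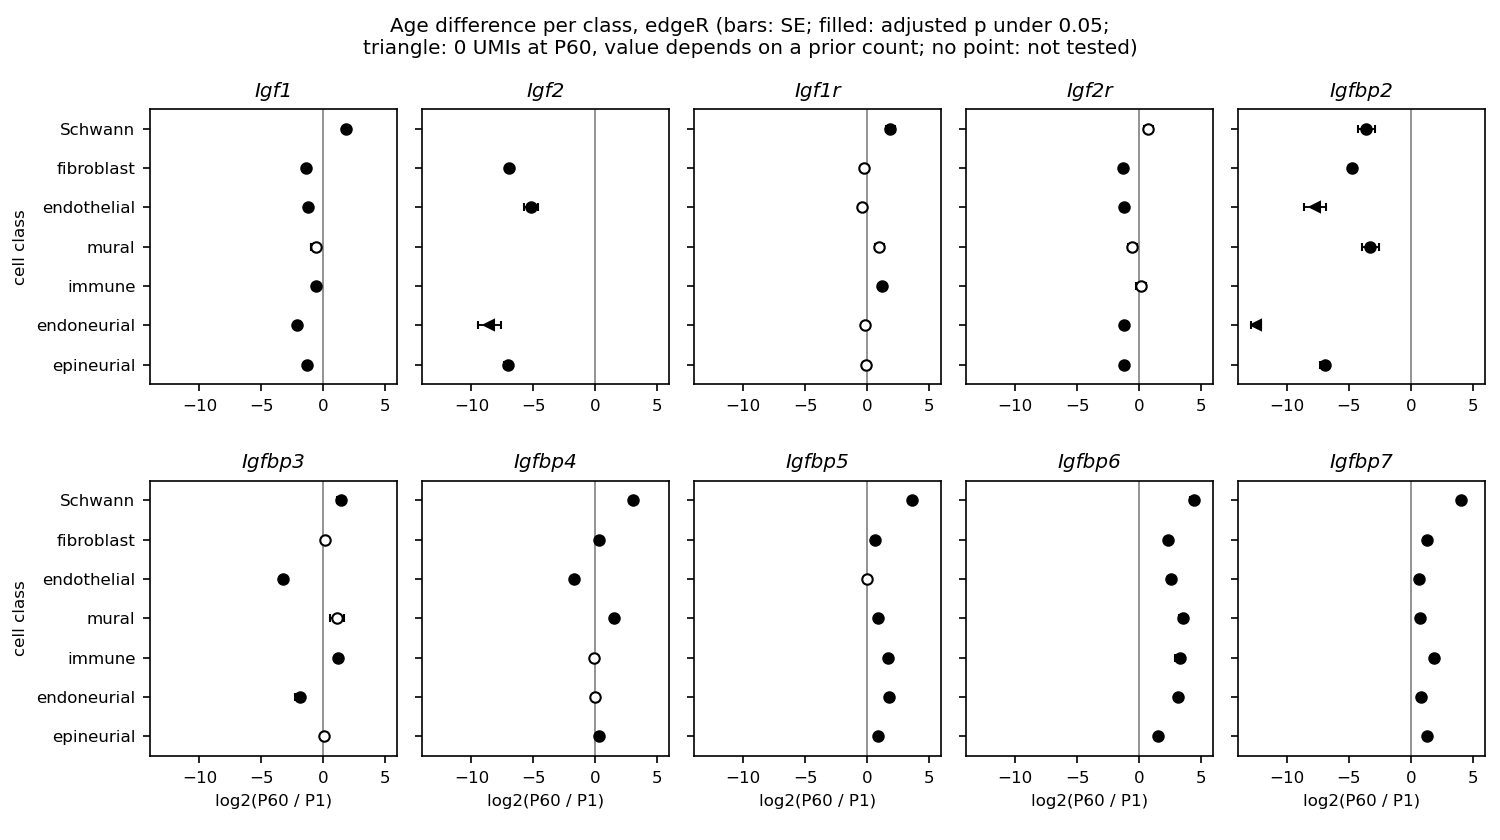
Age difference of each IGF gene, log2(P60/P1) with its SE (horizontal axis), in each cell class (vertical axis). Filled points passed an adjusted p of 0.05, a triangle marks a class with 0 UMIs at P60, whose value depends on a small added count, and a missing point was not tested. Igf2 and Igfbp2 lie farthest to the left, and Igfbp6 lies to the right of 0 in every class shown.

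Igf1, the ligand that growth hormone induces in many tissues, was highest in fibroblasts at both ages and lower there at P60. In the fibroblast class it measured 963, 998 and 990.4 CPM at P1 and 410.0, 348 and 334 CPM at P60, a log2 difference of -1.40 ± 0.11 (SE), adjusted p = 5.17e-06. The ages did not overlap. Both named sub-classes present at the 2 ages were called lower as well. Perineurial cells, named at P60 only, held 676 of the 16153 Igf1 UMIs of P60 fibroblasts and 16964177 of all their 44266056 UMIs. They thus lower the class level at P60, and the fall of the class without them was not tested. Endoneurial cells, the fibroblasts among the axons, had 1155, 1221 and 1187 CPM at P1 and 277, 253 and 232 CPM at P60 (-2.13 ± 0.12 (SE), adjusted p = 1.09e-08, 4.38-fold lower). Epineurial cells, in the outer sheath, had 1428, 1402 and 1401 CPM at P1 and 628, 613 and 564 CPM at P60 (-1.26 ± 0.087 (SE), adjusted p = 1.53e-06). Epineurial cells stood above endoneurial cells in every library of both ages, and perineurial cells of P60, the barrier layer around each fascicle, held 38.3, 42.5 and 37 CPM. The epineurial cells of P60 were not uniform: a cluster of 2546 cells led by Sfrp4 and Cilp had 881 ± 4.24 CPM (SD, n = 3) and a cluster of 1983 cells led by Pi16 had 310.0 ± 11.3 CPM.

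Immune cells were the other main site of Igf1, at 246, 275 and 255 CPM at P1 and 158, 179.6 and 159.9 CPM at P60 (-0.58 ± 0.13 (SE), adjusted p = 0.00463). Macrophages alone did not show this fall. All immune cells of P1 were macrophages by their markers, whereas at P60 a cluster of 450 other immune cells, led by Cd74 and H2-Aa, had 29.8 ± 9.62 CPM. Macrophages of P60 measured 236, 309 and 229 CPM, overlapping the P1 range, and the test gave 0.059 ± 0.14 (SE), adjusted p = 0.777. At P1 the macrophages fell into a cluster of 160 cells with Lyve1 and F13a1 among its leading genes, at 533 ± 52.9 CPM, and a cluster of 889 cells led by C1qb, at 189 ± 11.8 CPM. With the cluster of 160 cells left out, together with a P1 fibroblast cluster of high mitochondrial share, the log2 difference was -0.12 (adjusted p = 0.477) in immune cells and 0.53 (adjusted p = 0.0127) in macrophages. The call and its direction thus depend on which immune cells are counted.

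In vessels Igf1 was low. Endothelial cells had 76.5, 53.4 and 91.8 CPM at P1 and 32.7, 31.9 and 26.3 CPM at P60 (-1.24 ± 0.19 (SE), adjusted p = 3.12e-04), which became -0.64 (adjusted p = 0.0152) when cells that held at least 3 Dcn UMIs were set aside, with 46.5 ± 9.90 CPM at P1 (SD, n = 3). Mural cells had 57.4, 38.6 and 59.6 CPM at P1 and 41.1, 47 and 13.7 CPM at P60 (-0.60 ± 0.36 (SE), adjusted p = 0.218), with overlapping ages. Without mural cells of at least 10 Dcn UMIs Igf1 was called lower in edgeR (-1.16, adjusted p = 0.0102). Without those of at least 3 it was too (-0.88, adjusted p = 0.0357), at 23.3 to 29.3 CPM at P1 and 10.6 to 17.7 CPM at P60. Pericytes alone did not pass under that stricter cut (-0.53, adjusted p = 0.34). RNA freed from broken cells can enter any droplet, and the level of 7 fibroblast markers in another class, as a share of their level in fibroblasts, gives a scale for it. Endothelial Igf1 was 7.52% of the fibroblast level at P1, where these markers ranged from 1.14 to 14.6%. At P60 it was 8.34% against 2.66 to 7.09%, and one P60 endothelial cluster of 262 cells, led by Lrg1, Aqp1 and Fabp4, had 118 ± 14.6 CPM. Mural Igf1 lay within the marker range at both ages (5.28% at P1 and 9.22% at P60). The part of fibroblast RNA in these values was not tested.

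Igf2, the ligand best known from fetal growth and an imprinted gene, was present at P1 and nearly gone at P60. In fibroblasts the libraries held 422, 409 and 486 UMIs of Igf2 at P1 and 4, 4 and 2 at P60, or 30.9, 28.6 and 30.7 CPM at P1 and 0.270, 0.228 and 0.169 CPM at P60. The log2 difference was -6.97 ± 0.19 (SE), adjusted p = 3.91e-08, and no library of one age came near the other. Epineurial cells had the highest level of the named sub-classes at P1, 44.9, 44.8 and 44.9 CPM at P1 and 0.450, 0.442 and 0 CPM at P60 (-7.04 ± 0.30 (SE), adjusted p = 5.43e-08). Endoneurial cells had 19.3, 15 and 18.2 CPM at P1 and 0 UMIs in all 3 P60 libraries, at least 17.8-fold lower when 3 UMIs over the group are taken as the floor. A P1 fibroblast cluster of 1166 cells led by Igfbp6 and Dcn, which took no sub-class name, had 35.2 ± 3.18 CPM. In endothelial cells Igf2 was 11.6, 11.8 and 6.59 CPM at P1 and 0, 0.273 and 0.342 CPM at P60 (-5.19 ± 0.57 (SE), adjusted p = 2.05e-05), which at P1 is 33.4% of the fibroblast level, above the range of the fibroblast markers there. Mural cells had 8, 7 and 6 UMIs at P1 and 1, 0 and 0 at P60, too few for the test. Immune cells had 6, 7 and 9 UMIs at P1 and none at P60, and Schwann cells 8, 11 and 6 at P1 and none at P60. For Schwann cells 0 UMIs at P60 allow up to 3, which in their small libraries is more than the P1 level, so no difference was detectable at this depth.

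The Igf2 counts have a limit that bears on every comparison with Igf1. The reference used by the authors holds a second gene on the same strand (AC013548.1) that shares 3596 of the 5723 exon bases of Igf2 (62.8%) and 3284 of the 3287 bases (99.9%) of its last exon, at chr7:142650766-142654052. A 3' read that fits more than 1 gene is not counted, and AC013548.1 has 0 UMIs in all libraries. The printed Igf2 values can therefore hold only part of its transcripts. They can be compared between ages and classes, which share the reference, but the level of Igf2 cannot be set against that of Igf1 as numbers of molecules.

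Promoter windows are shown for both ligands, Igf1 and Igf2, and for Igfbp2, the binding protein that fell in fibroblasts with age. Igf2r fell there too, and its window, with 3 matches to the motif below, is not printed. Each is the 250 bases before a RefSeq transcript start in GRCm38.p6, written 5' to 3' on the gene's strand, and capitals mark GGGCGG on either strand, the core letters of a GC box. The windows are Igf1 at chr10:87860861-87861110 (plus strand, 0 matches), Igf2 at chr7:142657497-142657746 (minus strand, 2 matches, 1 of 4 Igf2 starts in the table) and Igfbp2 at chr1:72824230-72824479 (plus strand, 3 matches, 1 of 2 Igfbp2 starts in the table).
Igf1: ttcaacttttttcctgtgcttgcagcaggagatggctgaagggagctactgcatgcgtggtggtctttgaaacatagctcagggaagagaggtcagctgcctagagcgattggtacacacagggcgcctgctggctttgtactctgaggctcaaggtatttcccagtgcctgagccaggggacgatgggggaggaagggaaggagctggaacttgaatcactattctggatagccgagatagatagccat
Igf2: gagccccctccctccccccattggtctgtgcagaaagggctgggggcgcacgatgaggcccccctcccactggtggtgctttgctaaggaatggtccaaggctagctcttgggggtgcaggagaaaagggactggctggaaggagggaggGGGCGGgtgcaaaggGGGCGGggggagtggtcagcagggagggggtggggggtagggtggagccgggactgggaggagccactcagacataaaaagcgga
Igfbp2: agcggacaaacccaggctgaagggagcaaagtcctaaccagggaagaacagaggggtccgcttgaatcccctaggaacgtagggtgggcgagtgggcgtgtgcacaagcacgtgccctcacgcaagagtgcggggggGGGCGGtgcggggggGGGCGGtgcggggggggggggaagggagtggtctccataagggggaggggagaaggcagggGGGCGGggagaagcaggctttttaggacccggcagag
Of the 14 windows of the 10 genes, 6 held the motif, against 10756 of all 32851 windows in the table (32.7%). The windows of Igf2 not printed here hold 0, 0 and 1 matches and that of Igfbp2 holds 0, so the count depends on which start is shown. A match describes letters only.

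The ratio of Igf1 to Igf2 UMIs, as log2((Igf1 + 1)/(Igf2 + 1)) per library, had a higher mean at P60 in every class when all its cells were counted. Immune and Schwann cells held 0 Igf2 UMIs in all 3 P60 libraries, mural cells in 2 and endothelial cells in 1, so there the P60 ratio is a lower bound set by the Igf1 count and the added 1, and the ratios are not compared between classes. In fibroblasts it averaged 5.03 ± 0.081 at P1 and 10.29 ± 0.065 at P60 (mean and SD of 3 libraries), a difference of 5.26. All P60 libraries lay above all P1 libraries, and the two-sided exact permutation test gave p = 0.1, the smallest that 3 against 3 libraries allow (adjusted over 6 ratios, 0.12). The same p held for whole libraries (5.01 ± 0.066 at P1 and 10.05 ± 0.11 at P60), endothelial cells (2.83 ± 0.80 at P1 and 5.87 ± 0.58 at P60), mural cells (2.73 ± 0.46 at P1 and 4.69 ± 0.74 at P60) and immune cells (6.37 ± 0.24 at P1 and 8.35 ± 0.25 at P60). In Schwann cells the ratio was 4.21 ± 0.38 at P1 and 5.18 ± 0.77 at P60, the ages overlapped, and the exact permutation p was 0.2. The Schwann difference turned to -1.65 without cells of 10 or more Dcn UMIs and -1.69 without cells of 3 or more. The exact permutation p was 0.1 in each, with only 13 and 9 Igf1 UMIs and 0 Igf2 UMIs left at P60. Both ligands were lower in fibroblasts at P60, so the larger ratio there comes from the steeper fall of Igf2 and not from a rise of Igf1. Igf1 UMIs outnumbered Igf2 UMIs in every class and library at both ages, and because of the counting limit on Igf2 a switch of the dominant ligand can be neither read from these numbers nor denied.

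Counted as cells, the picture in fibroblasts was alike. After thinning every cell to 1500 UMIs, a UMI of Igf1 was found in 64% ± 0.680 at P1 and 32.6% ± 2.53 at P60, and one of Igf2 in 4.34% ± 0.321 at P1 and 0.0303% ± 0.0156 at P60. For immune cells the Igf1 shares were 21.5% ± 1.37 at P1 and 19.1% ± 2.35 at P60, with overlapping libraries. Endothelial cells had 8.38% ± 1.87 at P1 and 4.71% ± 0.513 at P60, mural cells 4.88% ± 1.18 at P1 and 2.94% ± 0.513 at P60 and Schwann cells 2.58% ± 0.345 at P1 and 6.67% ± 2.72 at P60. The Schwann share counts cells with Dcn UMIs, which were more frequent at P60. Unthinned, the fibroblast share of Igf1 was 84.9% ± 1.62 at P1 and 53.1% ± 6.90 at P60, with median depths of 7254.5 and 5201 UMIs. None of the 15 exact permutation tests on thinned shares can go below p = 0.1 (0.136 adjusted over the 15).

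**Figure D3:**
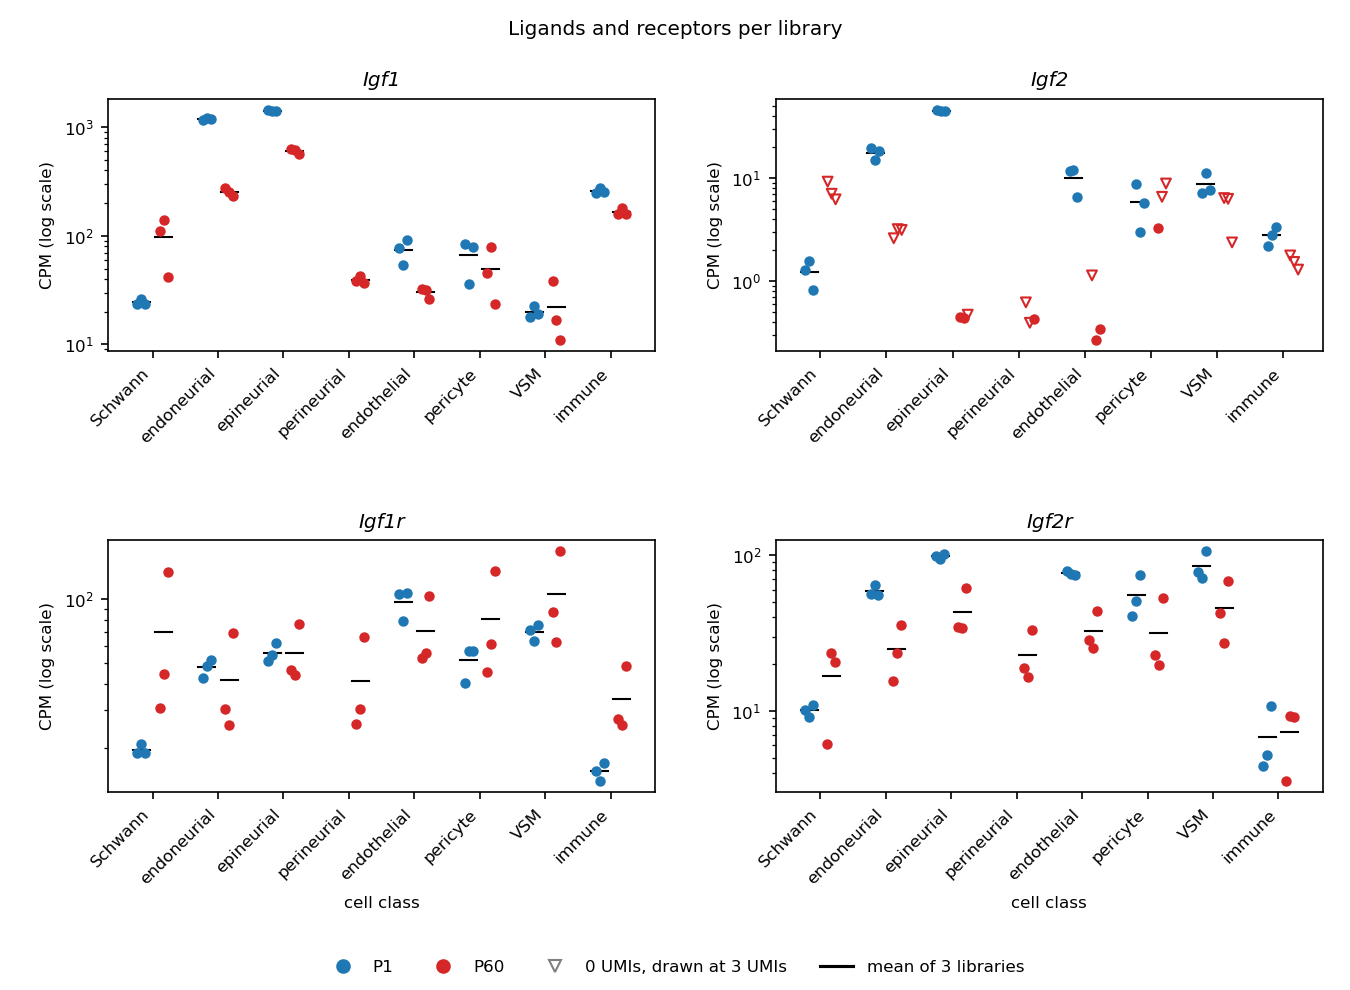
CPM on a log scale (vertical axis) of Igf1, Igf2, Igf1r and Igf2r by cell class (horizontal axis), 1 point per library, with bars at the mean of 3 libraries. Open triangles mark libraries with 0 UMIs, drawn at the level that 3 UMIs would give. Igf1 and Igf2 separate the ages in endoneurial and epineurial cells, whereas the third P60 library is the highest P60 point of Igf1r in every class shown.

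Igf1r, the kinase receptor of both ligands, was measured in every class, at P1 highest in endothelial cells and lowest in immune cells, while at P60 every pair of neighbouring classes overlapped. Fibroblasts had 54.5, 58.1 and 62.8 CPM at P1 and 38.5, 37.3 and 72.1 CPM at P60 (-0.23 ± 0.22 (SE), adjusted p = 0.39), and endothelial cells 106, 79.1 and 107 CPM at P1 and 52.8, 55.7 and 104 CPM at P60 (-0.43 ± 0.23 (SE), adjusted p = 0.165). In both, 2 P60 libraries lay below P1 and the third, the one of low depth and high mitochondrial share, did not. Without that library the log2 difference was -0.57 (adjusted p = 8.89e-06) in fibroblasts and -0.79 (adjusted p = 1.16e-04) in endothelial cells, a call in each. The part of RNA quality in this was not tested. Mural cells had 48.7, 55 and 62.4 CPM at P1 and 70.7, 62 and 161 CPM at P60, and the difference did not pass the test (0.99 ± 0.36 (SE), adjusted p = 0.0578), although it did without P60 replicate 1 or P60 replicate 2 (lowest adjusted p = 0.0153).

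Igf1r was higher at P60 in immune cells and Schwann cells, with or without the third P60 library. Immune cells had 15.5, 14 and 17 CPM at P1 and 27.3, 25.7 and 48.4 CPM at P60 (1.20 ± 0.24 (SE), adjusted p = 0.00241), and macrophages alone 1.47 ± 0.24 (SE), adjusted p = 6.22e-04. Schwann cells, the cells in which IGF signals are best known in nerve, had 18.8, 20.9 and 18.8 CPM at P1 and 30.7, 44.5 and 134 CPM at P60 (1.89 ± 0.35 (SE), adjusted p = 7.04e-04). All P60 libraries lay above P1 in both classes. Without P60 replicate 3 the values were 0.85 (adjusted p = 0.0027) in immune cells and 0.87 (adjusted p = 0.0236) in Schwann cells, a smaller value in each. When Schwann cells that held at least 3 Dcn UMIs were set aside it was 1.84 (adjusted p = 0.00148), at 18.5, 19.9 and 17.7 CPM at P1 and 21.5, 31.1 and 134 CPM at P60.

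Igf2r, which clears IGF2, fell in fibroblasts and endothelial cells. Fibroblasts had 85.8, 83.6 and 79.4 CPM at P1 and 27.9, 26.1 and 48.4 CPM at P60 (-1.27 ± 0.20 (SE), adjusted p = 5.10e-04), and endothelial cells 79.3, 75.5 and 74.6 CPM at P1 and 28.5, 25.4 and 43.7 CPM at P60 (-1.20 ± 0.18 (SE), adjusted p = 2.88e-04). The ages did not overlap in either, and the third P60 library was again the highest of its age. Endoneurial cells (log2 difference -1.18) and epineurial cells (-1.23) were called lower as well. Mural cells had 54.2, 65.6 and 81.6 CPM at P1 and 34.7, 23.5 and 64.9 CPM at P60, with overlap (-0.52 ± 0.35 (SE), adjusted p = 0.28), and without P60 replicate 3 they passed at -1.19 (adjusted p = 3.96e-04). Immune cells held 12, 13 and 29 UMIs at P1 and 6, 18 and 21 at P60, and Schwann cells 10.2, 9.10 and 10.9 CPM at P1 and 6.14, 23.4 and 20.7 CPM at P60, and neither passed the test (adjusted p = 0.735 and 0.116).

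**Figure D4:**
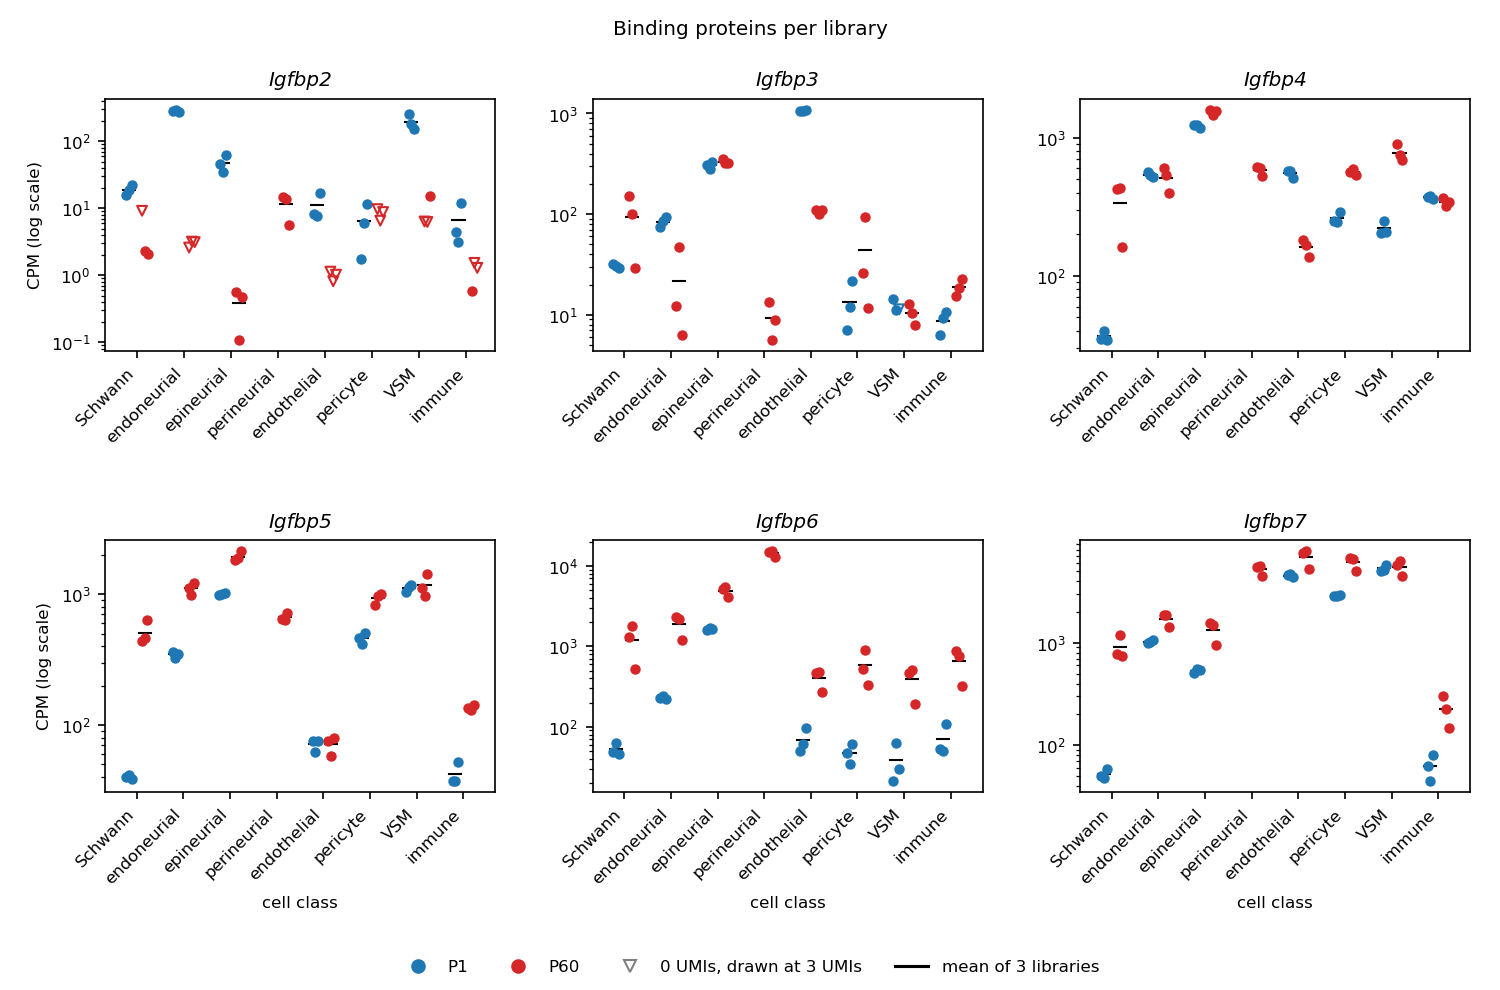
CPM on a log scale (vertical axis) of the 6 binding proteins by cell class (horizontal axis), 1 point per library, with bars at the mean of 3 libraries and open triangles for libraries with 0 UMIs, drawn at the level of 3 UMIs. Igfbp2 drops out at P60 in endoneurial cells, Igfbp3 separates the ages in endothelial cells, and Igfbp6 is higher at P60 in every class present at both ages.

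Igfbp2, a binding protein abundant in fetal tissue, had its highest level of the named sub-classes in endoneurial cells of P1. Endoneurial cells had 281, 289 and 273 CPM at P1 and 0 UMIs in all 3 P60 libraries, at least 286-fold lower by the floor of 3 UMIs over the group. Vascular smooth muscle had 254, 183 and 151 CPM at P1 and 0, 0 and 15 CPM at P60 (-4.40 ± 0.56 (SE), adjusted p = 5.33e-05), with P60 UMIs in replicate 3 only. The smooth muscle level at P1 rests largely on cells with Dcn: with cells that held at least 3 Dcn UMIs set aside it was 53.4 ± 38 CPM (SD, n = 3), against 5.53 ± 9.58 CPM at P60, and it did not pass the filter on low counts for a test. In the fibroblast class it measured 132, 124 and 136 CPM at P1 and 5.19, 5.98 and 2.44 CPM at P60 (-4.77 ± 0.26 (SE), adjusted p = 5.17e-07), and the P60 remainder sat in perineurial cells (15, 13.7 and 5.66 CPM), with 0.563, 0.110 and 0.475 CPM in epineurial cells. Mural cells as a whole fell by the edgeR test (-3.26 ± 0.66 (SE), adjusted p = 0.00358), but DESeq2 gave an adjusted p of 0.143, and the call was lost without cells of at least 3 Dcn UMIs (-1.22, adjusted p = 0.249). Endothelial cells had 8.26, 7.71 and 17.2 CPM at P1 and none at P60, at least 34.0-fold lower. The P1 level was 8.39% of that in fibroblasts, within the range of the fibroblast markers (1.14 to 14.6%), and 6.01 ± 3.03 CPM without cells of at least 3 Dcn UMIs, and the part of fibroblast RNA in it was not tested. Schwann cells had 16.1, 18.9 and 22.1 CPM at P1 and 0, 2.34 and 2.07 CPM at P60 (-3.59 ± 0.66 (SE), adjusted p = 6.01e-04). The P60 values rest on 2 UMIs in all. The Schwann level at P1 was 14.6% of that in fibroblasts, within the range of the fibroblast markers there (1.62 to 21.95%). Without Schwann cells of at least 3 Dcn UMIs it was 18.6 ± 3.82 CPM at P1, with 0 UMIs at P60, and the call was kept. The part of fibroblast RNA in the Schwann values was not tested.

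Igfbp3, the main IGF carrier of blood plasma, passed from endothelial cells to epineurial cells as its highest site. Endothelial cells, the highest class at P1, had 1047, 1057 and 1071 CPM at P1 and 109, 99.8 and 109.7 CPM at P60 (-3.28 ± 0.11 (SE), adjusted p = 2.71e-09, 9.71-fold lower). The libraries of each age lay close together and the ages were far apart. Epineurial cells did not pass the test, at 306, 283 and 332 CPM at P1 and 352, 319 and 320.5 CPM at P60 (0.076 ± 0.10 (SE), adjusted p = 0.571), and were the highest sub-class at P60. Endoneurial cells had 74.6, 85.9 and 92.7 CPM at P1 and 12.2, 46.9 and 6.28 CPM at P60 (-1.90 ± 0.37 (SE), adjusted p = 7.82e-04), with P60 replicate 2 well above the other P60 libraries. The value ran from -3.11 without P60 replicate 2 to -1.49 without P60 replicate 3. At P60 the epineurial cluster led by Sfrp4 and Cilp had 563 ± 57 CPM and the one led by Pi16 91.7 ± 9.92 CPM. Among P60 endothelial clusters the level was highest, at 439 ± 302 CPM, in 85 cells led by Cytl1, Pecam1 and Sox17. Perineurial cells held 13.5, 5.68 and 8.93 CPM. In immune cells Igfbp3 rose from 8.73 ± 2.27 to 18.9 ± 3.77 CPM (SD, n = 3; 1.19 ± 0.25 (SE), adjusted p = 0.00324), a call lost at adjusted p = 0.407 without cells of 10 or more Dcn UMIs.

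Igfbp4, a binding protein that is cut by the protease PAPP-A, went in opposite directions in the 2 vessel classes. Endothelial cells had 575, 572 and 513 CPM at P1 and 181, 166 and 137 CPM at P60 (-1.74 ± 0.13 (SE), adjusted p = 1.10e-06), and mural cells 243, 252 and 264 CPM at P1 and 765, 672 and 663 CPM at P60 (1.56 ± 0.12 (SE), adjusted p = 9.05e-06). Neither class had overlap between the ages. Pericytes (1.07) and vascular smooth muscle (1.97) were both called higher. Epineurial cells were the highest class at both ages, at 1247, 1229 and 1178 CPM at P1 and 1576, 1469 and 1564 CPM at P60 (0.30 ± 0.079 (SE), adjusted p = 0.00945), while endoneurial cells had 561, 536 and 519 CPM at P1 and 608, 534 and 396 CPM at P60 and no call (0.025 ± 0.15 (SE), adjusted p = 0.914). The small rise in the fibroblast class (0.31 ± 0.094 (SE), adjusted p = 0.0176) was lost without P1 replicate 2, P1 replicate 3 or P60 replicate 1 (adjusted p up to 0.0972), and the epineurial one without P1 replicate 2 or P1 replicate 3 (up to 0.0623). Immune cells had 375, 379 and 360.5 CPM at P1 and 367, 321 and 344 CPM at P60 (-0.047 ± 0.12 (SE), adjusted p = 0.782), with the P1 macrophages of the Lyve1 cluster at 720.0 ± 69.2 CPM and the others at 284 ± 18.8 CPM. Macrophages alone were called higher at P60 (0.45 ± 0.11 (SE), adjusted p = 0.00741), a call lost without P1 replicate 3 (adjusted p = 0.0561).

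Igfbp5, which also binds extracellular matrix, was a transcript of fibroblasts and mural cells and rose in both. Fibroblasts had 903, 859 and 886 CPM at P1 and 1383, 1301 and 1508 CPM at P60 (0.69 ± 0.086 (SE), adjusted p = 1.13e-04), and mural cells 632, 579.5 and 699.8 CPM at P1 and 999.9, 976 and 1332 CPM at P60 (0.91 ± 0.17 (SE), adjusted p = 0.00255). Neither class had overlap. Endoneurial cells rose from 364, 325 and 348 to 1118, 981 and 1226 CPM (1.76 ± 0.11 (SE), adjusted p = 3.42e-08), and epineurial cells from 983, 1009 and 1014 to 1814, 1888 and 2123 CPM (0.92 ± 0.082 (SE), adjusted p = 8.91e-06). The difference between these rises was not tested. Among mural cells the pericytes rose (0.99 ± 0.13 (SE), adjusted p = 5.24e-05), and vascular smooth muscle, at 1031, 1129 and 1173 CPM at P1 and 1112, 976 and 1420.5 CPM at P60, did not pass the test (adjusted p = 0.286). Endothelial cells had 75.4, 61.7 and 75.6 CPM at P1 and 74.8, 58.1 and 79.9 CPM at P60 (0.035 ± 0.15 (SE), adjusted p = 0.872), 8.02% and 5.06% of the fibroblast level and so within the range of the fibroblast markers at both ages.

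Igfbp6, a binding protein that prefers IGF2 to IGF1, was a fibroblast transcript and, with Igfbp7, 1 of 2 IGF genes called higher in all 5 classes. Fibroblasts had 1708, 1654 and 1714 CPM at P1 and 8134, 9446 and 7282 CPM at P60 (2.32 ± 0.12 (SE), adjusted p = 3.88e-07, 5.0-fold higher). The ages were far apart, but perineurial cells, named at P60 only, held 245582 of the 372988 Igfbp6 UMIs of P60 fibroblasts. Perineurial cells, at 14894, 15145 and 12939 CPM, were the highest sub-class of P60, and endoneurial cells rose from 229, 242 and 225 to 2335, 2159.9 and 1208 CPM (3.14 ± 0.22 (SE), adjusted p = 7.45e-08) and epineurial cells from 1612, 1683 and 1658 to 5232, 5438 and 4087 CPM (1.55 ± 0.11 (SE), adjusted p = 2.09e-06). At P1 the highest level was in the unnamed fibroblast cluster of 1166 cells (4069 ± 25.2 CPM). Igfbp6 in other classes was 4.90% of the fibroblast level in endothelial cells, 5.49% in mural cells and 7.76% in immune cells at P60, each within the range of the fibroblast markers. The rises there measured 2.60, 3.56 and 3.29 on the log2 scale, and the part of fibroblast RNA in them was not tested. The same holds for Igfbp5 and Igfbp7 in immune cells, which at P60 stood at 9.71% and 8.01% of the fibroblast level, where the markers spanned 4.65 to 12.4%. Immune cells under 3 Dcn UMIs kept the calls of Igfbp5 (1.81), Igfbp6 (3.91) and Igfbp7 (2.33).

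Igfbp7, which binds IGFs weakly and is known from vessel walls, was highest in endothelial and mural cells. Endothelial cells had 4492, 4643 and 4322 CPM at P1 and 7462, 7690.3 and 5200.4 CPM at P60 (0.64 ± 0.13 (SE), adjusted p = 0.00263), and mural cells 3522, 3411 and 3628 CPM at P1 and 6038, 6332 and 4519 CPM at P60 (0.76 ± 0.12 (SE), adjusted p = 8.46e-04). All P60 libraries lay above P1 in both. Pericytes rose (1.03 ± 0.12 (SE), adjusted p = 9.68e-06), and vascular smooth muscle, already at 4999.8, 5096 and 5693 CPM at P1, did not pass the test (0.19 ± 0.12 (SE), adjusted p = 0.263). Endothelial cells of P60 ranged widely, from 3491 ± 1925 CPM in the 85 cells led by Cytl1 to 19596 ± 2546 CPM in 133 cells led by Plvap and Rbp7, with 6369 ± 1202 CPM in the largest cluster, of 984 cells led by Cldn5. In fibroblasts Igfbp7 was 1199.8, 1161 and 1178 CPM at P1 and 2841, 3235 and 2338 CPM at P60 (1.28 ± 0.13 (SE), adjusted p = 2.99e-05), and perineurial cells, at 5453, 5505 and 4446 CPM, were near the vessel classes. These perineurial cells, named at P60 only, held 88278 of the 126706 Igfbp7 UMIs of P60 fibroblasts. Endoneurial (0.85) and epineurial cells (1.29) were both called higher, and within the P60 epineurial cells the cluster led by Sfrp4 and Cilp had 2180.2 ± 373 CPM against 407 ± 70.9 CPM in the one led by Pi16.

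Schwann cells need a separate account, since a larger share of them held Dcn UMIs at P60 than at P1. Of the 419 Schwann cells of P60, 11.9% held 10 or more UMIs of Dcn, a collagen-binding proteoglycan of fibroblasts, against 1.06% of the 3204 cells of P1. The 7 fibroblast markers had a median of 6.26% of the fibroblast level in Schwann cells at P1 and 32.7% at P60. They summed to 5205.88 to 5567.52 CPM at P1 and 4850.86 to 9566.25 CPM at P60, with overlap and no marker at 0. In fibroblasts the sums were lower at P60 (27602.9 to 31732.8 CPM) than at P1 (36815.1 to 38455.9 CPM). Free RNA, doublets and expression by the cells were not told apart. Igf1 in Schwann cells was 23.4, 26.2 and 23.7 CPM at P1 and 110.4, 141 and 41.4 CPM at P60 (1.89 ± 0.29 (SE), adjusted p = 1.49e-04), which is 2.48% and 26.6% of the fibroblast level. When Schwann cells that held at least 3 Dcn UMIs were set aside, Igf1 was 10.9, 11.2 and 12.3 CPM at P1 and 10.8, 11.7 and 10.5 CPM at P60 (-0.25 ± 0.44 (SE), adjusted p = 0.714), and the ages overlapped. Igfbp3, at 31.7, 30.7 and 29.4 CPM at P1 and 150.3, 101 and 29 CPM at P60 (1.44 ± 0.33 (SE), adjusted p = 0.00292), likewise lost its call (-0.075 ± 0.31 (SE), adjusted p = 0.877), and with all cells it was lost without P60 replicate 1 (adjusted p = 0.0708).

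The other binding proteins kept their calls in these cells, at smaller levels. Igfbp4 went from 3.11 on the log2 scale to 0.92 ± 0.25 (SE), adjusted p = 0.00775, at 25.3, 25.1 and 22.7 CPM at P1 and 48.4, 42.8 and 60.4 CPM at P60. Igfbp5 went from 3.62 to 2.23 ± 0.24 (SE), adjusted p = 2.63e-06, and Igfbp6 from 4.45 to 3.50 ± 0.21 (SE), adjusted p = 1.47e-09. Igfbp7 was least altered: 50.3, 48.5 and 58.5 CPM at P1 and 776, 1195 and 743 CPM at P60 with all cells (4.05 ± 0.19 (SE), adjusted p = 2.15e-09) and 38.9, 37.8 and 43.2 CPM at P1 and 619, 736 and 633 CPM at P60 without those cells (3.87 ± 0.11 (SE), adjusted p = 1.59e-13). With all cells, Igfbp4, Igfbp5, Igfbp6 and Igfbp7 stood at 30.6, 36.3, 14.1 and 32% of the fibroblast level at P60, where the fibroblast markers spanned 6.93 to 60.6%. With cells of at least 3 Dcn UMIs set aside, mean Igfbp6 in Schwann cells went from 27.4 to 366 ± 136 (SD) CPM with age. Under the same cut it went from 16.9 to 274 ± 131 CPM in endothelial cells. In mural cells it went from 27 to 301 ± 140 CPM, and in immune cells from 24.7 to 354 ± 173 CPM. The Igfbp6 rise is thus not particular to Schwann cells. Median Schwann depth fell from 6051.5 to 2332 UMIs, so a fixed cut of 3 UMIs is looser for P60 cells. The part of fibroblast RNA in what remains was not tested. Fewer transcripts per cell and fewer transcribing cells cannot be told apart in these sums.

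**Figure D5:**
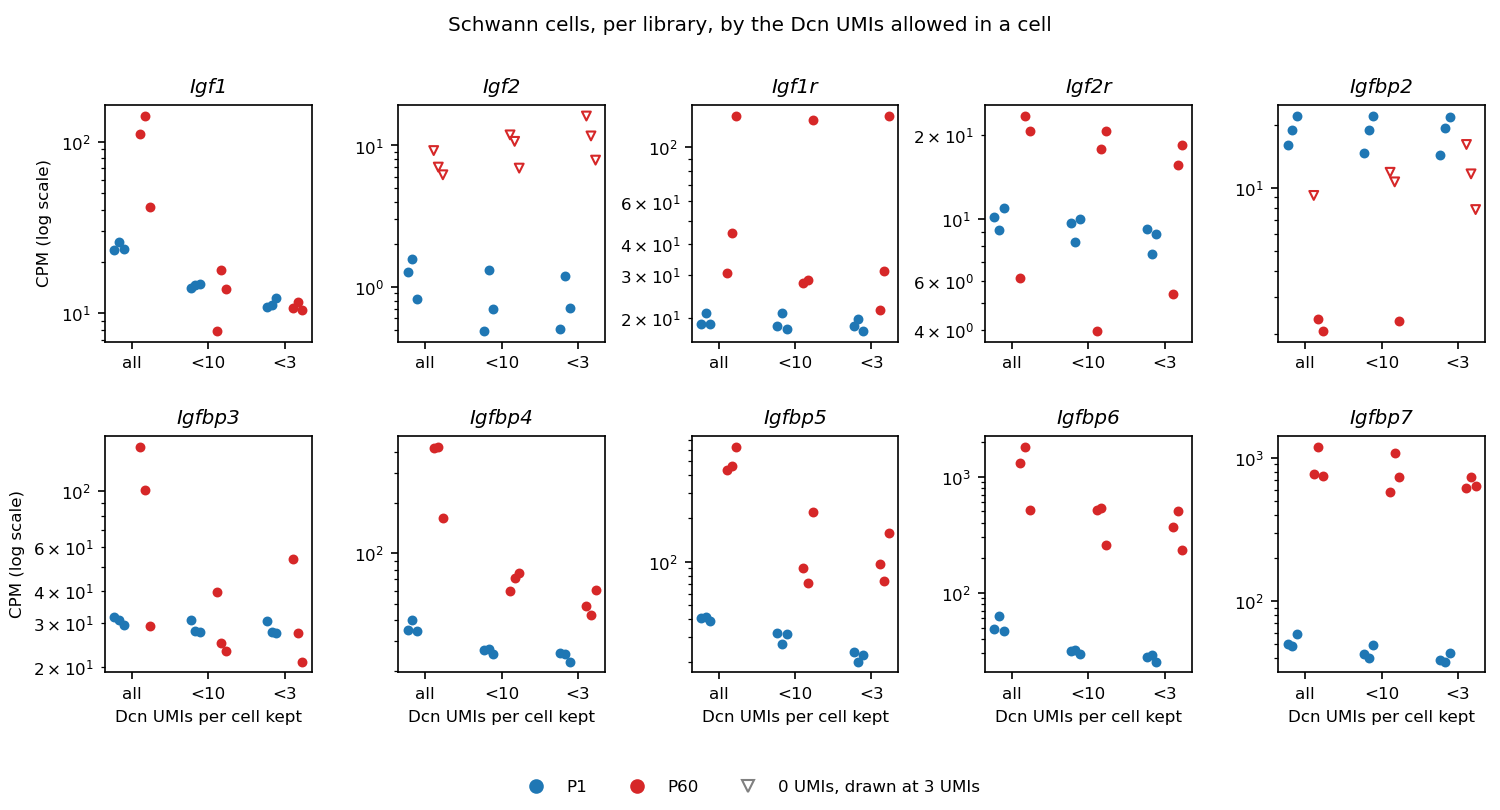
CPM on a log scale (vertical axis) of the 10 IGF genes in Schwann cells, 1 point per library, with all cells, with cells under 10 Dcn UMIs and with cells under 3 Dcn UMIs (horizontal axis). The ages come together for Igf1 and Igfbp3 as cells with Dcn are left out, and stay apart for Igfbp4, Igfbp5, Igfbp6 and Igfbp7. Open triangles mark libraries with 0 UMIs, drawn at the level of 3 UMIs.

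Whether the age difference itself differed from that of fibroblasts was tested as the interaction of class and age, with library as a block. The reference was the whole fibroblast class, whose make-up differs between the ages, and differences from its sub-classes were not tested. For Igfbp5 the rise of that class was smaller than the rise in endoneurial or epineurial cells. The mural and immune classes differ in make-up between the ages as well. Endothelial cells differed for 4 of 10 IGF genes (background 30.6%), all with a negative value: Igfbp3 (-3.42 ± 0.20 (SE), adjusted p = 1.73e-15), Igfbp4 (-2.0), Igfbp5 (-0.61) and Igfbp7 (-0.60). A negative value means a larger fall or a smaller rise than in fibroblasts, or a fall where fibroblasts had none. Igfbp3 and Igfbp4 fell in endothelial cells and did not fall in fibroblasts. Mural cells differed for 5 of 10 (background 20.9%), with Igf1r (1.18 ± 0.18 (SE), adjusted p = 5.60e-06) and Igfbp4 (1.28) the largest values. Immune cells differed for 7 of 10 (background 30.3%), among them Igf1 (0.86 ± 0.18 (SE), adjusted p = 2.42e-04) and Igf1r (1.40), both positive. Schwann cells differed for 8 of 10 (background 30.9%), the largest being Igf1 (3.26 ± 0.30 (SE), adjusted p = 2.14e-10), whose own age call was lost without Dcn-bearing cells. The fall of Igf1 in endothelial cells was not shown to differ from that in fibroblasts (0.21 ± 0.23 (SE), adjusted p = 0.549). Calls in immune and mural cells depended on single libraries: they numbered 4 to 7 and 2 to 6 as each library was left out.

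The genes most like the ligands in pattern were sought over 13 class-by-age units, by Pearson correlation of mean log2(CPM + 1), among genes reaching 50 CPM. The units share 6 libraries and differ in depth, so these are descriptions without a test. For Igf1 the nearest of 6120 genes were Vcan (r = 0.869), Rtl3 (0.865), S1pr2 (0.854), Tmed3 (0.851) and AW551984 (0.846). Igf2 was matched more closely, by Agtr2 (r = 0.943), Snhg12 (0.924), Eif4e2 (0.921), Nrk (0.92) and Snhg1 (0.915) of 6121 genes.

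Of 44 further genes of the IGF pathway, those of the Igf2 locus and of Igf2 mRNA binding were called in most classes. The 44 genes are given for whole classes only. The part of the different make-up of a class at the 2 ages in their changes was not tested. H19, the noncoding RNA transcribed next to Igf2 in the same imprinted region, and the 3 IGF2 mRNA-binding proteins, which hold and stabilise transcripts in fetal cells, were called lower in all of fibroblasts, endothelial, mural and immune cells, 4 of 4, and 3 of 4 in Schwann cells. Over all genes 28.7, 19.6, 15.5, 17.2 and 20.5% were called lower in these classes, in the same order. In fibroblasts H19 went from 3059 to 147 CPM in mean, log2 difference -4.34 ± 0.22 (SE), adjusted p = 3.98e-07, and in endothelial cells from 1115 to 6.55 CPM in mean, log2 difference -7.35 ± 0.23 (SE), adjusted p = 1.95e-09. Igf2bp3 fell in fibroblasts from 79.5 to 18 CPM in mean, log2 difference -2.11 ± 0.11 (SE), adjusted p = 4.96e-07. Igf2bp2 had log2 differences of -1.74 in fibroblasts and -4.34 in endothelial cells, and Igf2bp1 of -1.41 in fibroblasts and -4.01 in mural cells. How much fibroblast RNA there is in the values of these genes outside fibroblasts was not tested.

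A pair of secreted serine proteases that can cut binding proteins were higher at P60. Htra1 rose in fibroblasts from 41.8 to 327 CPM in mean, log2 difference 3.0 ± 0.13 (SE), adjusted p = 1.97e-07, and it was called higher in endothelial, immune and Schwann cells too. Htra3 rose in fibroblasts from 159 to 436 CPM in mean, log2 difference 1.49 ± 0.21 (SE), adjusted p = 2.31e-04. It was called higher in mural, immune and Schwann cells too, at 46.6, 38.9 and 134 CPM at P60, while endothelial cells had 35.1 CPM at P1 and 27.8 CPM at P60 and no call. The part of fibroblast RNA in the Htra1 and Htra3 values outside fibroblasts was not tested, nor in those of Socs2, Foxo1, Stat5b and Vtn. Socs2, a feedback inhibitor that growth hormone induces, fell in fibroblasts from 119 to 8.44 CPM in mean, log2 difference -3.79 ± 0.14 (SE), adjusted p = 9.03e-08, and in mural and Schwann cells, but in endothelial cells it measured 134 and 159.8 CPM in mean at P1 and P60 and was not called (0.30). Foxo1, a transcription factor that Akt holds out of the nucleus, rose in fibroblasts from 19.9 to 48.4 CPM in mean, log2 difference 1.31 ± 0.11 (SE), adjusted p = 8.95e-06, and in mural, immune and Schwann cells. Stat5b, which carries the growth hormone signal, rose in fibroblasts (0.87), immune (1.66) and Schwann cells (2.40). Vtn, a matrix protein that binds IGF complexes, rose in fibroblasts from 161 to 316 CPM in mean, log2 difference 1.01 ± 0.16 (SE), adjusted p = 5.08e-04, and fell in mural cells (-0.95), where it also served as a pericyte marker. Pericytes held a smaller part of the mural UMIs at P60, and the part of this shift in the fall was not tested.

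Over all 44, fibroblasts called 11 of 37 tested higher and 14 lower (background 30.8% and 28.7%), and endothelial cells 5 and 10 of 34 (21.1% and 19.6%). Mural cells called 6 and 10 of 30 (17.9% and 15.5%), immune cells 14 and 4 of 31 (20.3% and 17.2%), and Schwann cells 12 and 7 of 33 (23.4% and 20.5%). The median log2 change of those tested was 0.23 in fibroblasts, -0.047 in endothelial cells, 0.18 in mural cells, 0.68 in immune cells and 0.37 in Schwann cells, beside medians over all genes of 0.027, 0.011, 0.014, 0.018 and 0.040. Of the 13 PI3K and Akt genes, 3 were called higher and 3 lower in fibroblasts, 1 and 1 in endothelial cells, 2 and 0 of 12 tested in mural cells, 7 and 0 in immune cells, and 4 and 2 of 12 tested in Schwann cells. Insulin itself, as Ins1 and Ins2, passed the filter in no class.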

How the data were processed

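Sciatic nerve cells of 3 libraries at P1 and 3 at P60 were measured by 10x 3' v2 single-cell RNA-seq. The deposited matrices hold raw UMI counts per gene and cell, which the authors made with Cell Ranger 2.0.2, whose cell calling was applied. The submitters' processing notes name GRCm38.p5, while the methods name a build of another organism, and the gene identifiers are those of mouse. Kept cells (500 to 5000 genes) number more than the study's methods state. No doublets were removed in the main analysis, and Scrublet (scanpy 1.11.5) was an alternative.

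Cells were clustered per age in Seurat 5.3.0 without the 10 IGF genes among the variable genes (2293 before their removal at P1, 2285 at P60) and named where at least 3 fixed markers reached 0.3 of their highest cluster and 10% of cells. Mixed clusters were split or left out. This level was set after clusters had been seen and changed P1 clusters 7 (697 cells, to fibroblast) and 13 (160 cells, to immune). UMIs were summed per library and class with at least 20 cells in each library, and tested with edgeR 4.0.16 (TMM, quasi-likelihood, filterByExpr with a minimum count of 10, Benjamini-Hochberg adjustment). The interaction with class used library as a block. Ratios and shares of cells were compared by exact permutation. In simulated data the test recovered 100.0% of 4-fold changes in fibroblasts (14412 genes), 97.9% in immune cells (9975 genes) and 76.8% in Schwann cells (10832 genes), the lowest of the 3 classes simulated. Of 2-fold changes it recovered 34.0%, 40.4% and 16.5% in these classes, in the same order. The simulation gave every gene and class the same dispersion, whatever the spread between the real libraries. Intervals and floors (3 UMIs) cover counting error only.

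The main test on the ratio had been laid out as one of molecules, and the overlap of Igf2 with AC013548.1 does not allow that reading. The IGF genes and the gene and marker lists were chosen with earlier results of these data known. The named genes are all 10 IGF genes, the 5 genes nearest to each ligand and, of 44 further pathway genes, the 10 with the largest mean change among those called in 1 direction in at least 3 of the 5 classes. Clusters within a class were named after their values were seen. Alternatives were size factors of DESeq2 1.42.0, library size alone, no filter, a replicate block, other cell sets and each library left out. Promoters came from RefSeq.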

Additional observations from a re-analysis of the deposited data

Results flagged for a closer look

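The age effect (log2 P60 over P1) differed from that of fibroblasts by the interaction test in edgeR for 24 pairs of an IGF gene and a class, all with adjusted p under 0.05. Values are the age effect in the class minus that in the whole fibroblast class, on the log2 scale. The fibroblast class holds perineurial cells named at P60 only, and differences from its sub-classes were not tested. The mural and immune classes also differ in make-up between the ages.

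In Schwann cells the differences were 3.26 ± 0.30 for Igf1, 1.97 ± 0.22 for Igf1r, 1.92 ± 0.46 for Igf2r, 1.22 ± 0.33 for Igfbp3, 2.76 ± 0.20 for Igfbp4, 2.88 ± 0.14 for Igfbp5, 1.96 ± 0.27 for Igfbp6 and 2.74 ± 0.17 for Igfbp7. At P60 a larger share of these cells held Dcn UMIs than at P1, and the part of fibroblast RNA in the differences was not tested. Those of Igf2r and Igfbp3 were each lost when 1 library, P60 replicate 2 and P60 replicate 1, was left out (adjusted p up to 0.0683 and 0.0971). In endothelial cells the differences were -3.42 ± 0.20 for Igfbp3, -2.0 ± 0.16 for Igfbp4, -0.61 ± 0.15 for Igfbp5 and -0.60 ± 0.15 for Igfbp7, where the Igfbp5 level lay within the range of the fibroblast markers.

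In immune cells the differences were 0.86 ± 0.18 for Igf1, 1.40 ± 0.20 for Igf1r, 1.45 ± 0.37 for Igf2r, 1.06 ± 0.41 for Igfbp3, 1.07 ± 0.15 for Igfbp5, 0.89 ± 0.28 for Igfbp6 and 0.63 ± 0.18 for Igfbp7. The Igfbp3 difference had an adjusted p of 0.0457 and was kept without P60 replicate 1 (0.0166) and lost without each of the other libraries (up to 0.166). Those of Igf2r, Igfbp6 and Igfbp7 were lost without 1, 4 and 2 of the 6 libraries in turn (adjusted p up to 0.0598, 0.138 and 0.0909). The levels of Igfbp3, Igfbp5, Igfbp6 and Igfbp7 in immune cells lay within the range of the fibroblast markers at both ages. In mural cells the differences were 1.18 ± 0.18 for Igf1r, 0.72 ± 0.23 for Igf2r, 1.28 ± 0.17 for Igfbp4, 1.16 ± 0.36 for Igfbp6 and -0.48 ± 0.15 for Igfbp7, and those of Igf2r, Igfbp6 and Igfbp7 were each lost when 1 of several libraries was left out.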

How the results depend on the processing

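Of 89 pairs of an IGF gene and a class, 65 were called, and 64 or 65 were called again in the same direction under DESeq2, library size alone, no filter, the mitochondrial limit, IGF genes kept in the clustering and the 2 P1 clusters left out; fewer pairs could be tested with 50 cells per library (48 of 52), with doublets left out (61 of 63) and without Dcn-bearing cells (36 of 40 and 33 of 38). Leaving out 1 library kept 60 to 65 calls, and leaving out P60 replicate 3 added 11.

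Without cells that held at least 10 Dcn UMIs, the direction turned for Igf1 in Schwann -0.19, Igf1 to Igf2 ratio in Schwann -1.65, Igfbp3 in Schwann -0.12, Igfbp5 in endothelial -0.11 and the count moved for IGF genes lower in mural 2. Those 2 were Igf1 and Igfbp2. Without cells that held at least 3 Dcn UMIs (chosen after seeing the data), the direction turned for Igf1 in Schwann -0.25, Igf1 to Igf2 ratio in Schwann -1.69, Igfbp3 in Schwann -0.075. With library size alone, the direction turned for Igf1 in macrophage -0.0068, Igfbp4 in endoneurial -0.067, Igfbp5 in endothelial -0.0024. With no filter on low counts, the direction turned for Igf1 in macrophage -0.019, Igfbp4 in endoneurial -0.094 and the count moved for IGF genes lower in immune 3, IGF genes lower in mural 2. With 50 cells per library and class, the direction turned for Igf1r in fibroblast 0.44, Igfbp3 in fibroblast -0.045, Igfbp4 in endoneurial -0.065, Igfbp4 in immune 0.015 and the count moved for IGF genes higher in immune 3, IGF genes lower in Schwann 0, IGF genes lower in endothelial 3, IGF genes lower in mural 0. With cells over 10% mitochondrial UMIs left out, the direction turned for Igf2r in macrophage -0.045 and the count moved for IGF genes lower in mural 2. With another normalization total before clustering, the direction turned for Igfbp3 in mural -0.23 and the count moved for IGF genes lower in mural 2. With Scrublet doublets left out, the direction turned for Igfbp4 in endoneurial -0.045. With a replicate block, the direction turned for Igfbp4 in endoneurial -0.0022. With P1 clusters 7 and 13 left out (chosen after seeing the data), the direction turned for Igfbp4 in immune 0.34 and the count moved for IGF genes lower in immune 0. With DESeq2, the count moved for IGF genes lower in mural 0. With no library block, the count moved for IGF genes differing from fibroblasts in immune 3, IGF genes differing from fibroblasts in mural 1.

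Leaving out each library in turn, the log2 difference changed sign within the ranges -0.093 to 0.15 for Igf1 in macrophage cells, -0.65 to 0.055 for Igf1r in endoneurial cells, -0.32 to 0.088 for Igf1r in epineurial cells, -0.053 to 0.67 for Igf2r in immune cells, -0.17 to 0.55 for Igf2r in macrophage cells, -0.16 to 0.20 for Igfbp4 in endoneurial cells and -0.059 to 0.17 for Igfbp5 in endothelial cells, none of them called in the fit of all libraries. The counts of IGF genes ran 7 to 7 higher in Schwann, 2 to 2 higher in endothelial, 3 to 5 higher in fibroblast, 5 to 5 higher in immune, 4 to 5 higher in mural, 0 to 1 lower in Schwann, 6 to 7 lower in endothelial, 4 to 5 lower in fibroblast, 1 to 2 lower in immune, 1 to 2 lower in mural, 7 to 8 differing from fibroblasts in Schwann, 4 to 4 differing from fibroblasts in endothelial, 4 to 7 differing from fibroblasts in immune, 2 to 6 differing from fibroblasts in mural. The cause of these changes was not tested, except that fewer cells and libraries leave fewer genes past the filter.

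The replicate numbers of the 2 ages share only a number: same-numbered samples correlated at 0.0558, 0.0914 and 0.0957 over 11303 genes in their deviations from the age means. With a replicate block all 65 calls stayed and 4 were added, among them Igf1r in endothelial cells (-0.46, adjusted p = 0.0468) and mural cells (0.86, adjusted p = 0.0249).

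Depth limits low genes most in Schwann cells at P60, where 419 cells with a median of 2332 UMIs were left, and Igf2 at P60, where Schwann and immune cells hold 0 UMIs and the ratio rests on the added 1. With 3 libraries per age 0.1 is the smallest p of an exact test.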

Other observations

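A P60 cluster of 116 cells with lymphatic endothelial markers, led by Ccl21a, Mmrn1 and Lyve1, stood outside the endothelial class and had too few cells for a comparison. It had 1769 ± 436 CPM of Igfbp5 (mean ± SD, n = 3), where blood endothelial cells had 71 ± 11.4 CPM. Its Igfbp7, at 317 ± 241 CPM, was far below the 6784 ± 1376 CPM of blood endothelial cells, and its Igfbp4 was 393 ± 145 CPM.

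Among P1 fibroblasts, the 600 cells led by genes of the cell cycle had 802 ± 37 CPM of Igf1 and 24.3 ± 0.633 CPM of Igf2.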
